A study of Mus musculus with 16 samples.

Results

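The genes described here were 31 members of hepatic fatty acid oxidation and ketone body metabolism, chosen by symbol from a list and kept where the normalised count reached 10 in at least 2 of the 16 libraries. All 31 listed genes passed, out of 14836 genes that passed the same rule and 47069 gene identifiers in the table. The list names genes by their place in the pathway, and the threshold removed none of them. Within the liver, long-chain fatty acids are linked to carnitine, carried into mitochondria and shortened by repeated cycles of dehydrogenation, hydration, a second dehydrogenation and thiolytic cleavage, and the electrons pass through the electron transfer flavoprotein to ubiquinone. Peroxisomes shorten very-long-chain and other unusual acids, thioesterases release free acids from CoA, and part of the acetyl-CoA leaves the liver as ketone bodies. Many of these genes are textbook targets of the nuclear receptor PPAR-alpha, which responds to fasting and fatty acids. The label also names ketogenesis, but Bdh1 was the one member that acts directly on ketone bodies, so other genes of ketone body metabolism, such as Acat1, were read from a separate list.

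The libraries were mRNA-seq of mouse tissue, and every animal, controls included, had received diethylnitrosamine (DEN), a liver carcinogen. The 6 groups were liver tumours at 9 months on high-fructose diet (n = 3), liver tumours at 9 months on cornstarch diet (n = 2), liver at 9 months on high-fructose diet (n = 3), liver at 9 months on cornstarch diet (n = 3), liver at 5 months on high-fructose diet (n = 2) and liver at 5 months on cornstarch diet (n = 3). Strain, sex, the age at DEN treatment, and whether a tumour and a liver came from 1 animal are not given in the sources used here. No group without DEN was analysed here. Nothing in the labels says that replicates were separate animals, so p-values measure the spread between these samples, which may in part be technical.

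Library totals ran between 11232461 and 38377674 reads. All 16 of 16 hepatocyte markers reached 10 normalised counts in every library, and their summed level was 2443638 to 6283587 in tumours, against 1870510 to 3097453 in livers at 9 months. Libraries of 1 group often differed in the same direction over most members. The second cornstarch tumour was below the first for 31 of 31 members, the first cornstarch liver at 9 months was the lowest of its group for 30, and the second fructose liver at 9 months was the lowest of its group for 28. At 5 months the second fructose liver was below the first for 29 members, and the last cornstarch liver was the lowest of its group for 26. The 5-month groups mixed sexes: the first fructose liver had 12936 normalised counts of Xist and 0.0 of 3 summed Y-linked genes, and the first cornstarch liver had 10883 and 1.9, while every other library had 1593 to 2602 Y-linked counts. The last cornstarch liver at 9 months, which was the highest of all 16 libraries for 18 members, had 226 counts of Xist beside 1593 Y-linked counts, where the other Y-positive libraries had at most 25.8 of Xist. Both 5-month fructose livers also had neutrophil marker sums of 64370 and 94108 normalised counts, against 1112, 534 and 220 in the 5-month cornstarch livers. In whole tissue, fewer cells of a type and less RNA per cell cannot be told apart, and this holds for every level below.

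Sequence limits how well some members can be separated. Acaa1a and Acaa1b, the paired peroxisomal thiolases on chromosome 9, shared 96.54% of aligned coding bases, and Acot1 and Acot2, neighbouring acyl-CoA thioesterases on chromosome 12, shared 95.55%. The stretches below are 60 coding bases from the last aligned block of each pair, read from GENCODE transcripts of GRCm38, with capitals marking the bases of the lower sequence that differ from the upper one. They are shown because Acaa1b and Acot1 were among the members that moved most.
Acaa1a: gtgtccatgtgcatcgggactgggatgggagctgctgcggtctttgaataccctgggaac
Acaa1b: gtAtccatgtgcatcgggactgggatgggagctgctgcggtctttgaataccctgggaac
Acot1: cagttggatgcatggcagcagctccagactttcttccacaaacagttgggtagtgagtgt
Acot2: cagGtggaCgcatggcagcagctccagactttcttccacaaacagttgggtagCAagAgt
The Acaa1 stretches differed at 1 base and the Acot stretches at 5. Over whole transcripts, 46.2% of the 50-base windows of Acaa1b and 33.6% of those of Acot1 occurred in another gene's transcripts, most often in the paired gene, and how the reads divide between such partners cannot be settled here. Etfb shared 67.3% of its windows with Gm45233 and Hadhb 61.5% with Gm13910, yet these partners had at most 4.76 and 17.7 normalised counts in any library. Acadvl shared 24% of its windows with the overlapping gene Dvl2, which had 84.5 to 195 normalised counts, against 3381 to 8341 for Acadvl.

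Promoters of 27 of the 31 members were matched by symbol in RefSeq, covering 250 bases before to 50 bases after a listed start in GRCm38.p6. A listed start can differ from the gene coordinates given below: the Cpt1a window lies inside those of Cpt1a (chr19:3322334-3385733). The half-site AGGTCA of nuclear receptors such as PPAR-alpha, searched on both strands, was present for 5 of 27 members (Acadm, Acadvl, Acot3, Acot4 and Cpt1a), against 16.3% of 32851 promoters. PPAR-alpha is known to bind a direct repeat of that half-site with 1 base between. An exact match to this repeat was present for 0 of 27 members, against 0.0396% of promoters (13 of 32851). With a match this rare in any promoter, the 0 cannot describe the members, and imperfect repeats were not searched. Below are the promoters of Acot4 and Acadvl, which were lower in tumours, and of Cpt1a, which was not called, with the half-site in capitals. They lie at chr12:84038129-84038428 on the plus strand, chr11:70015379-70015678 on the minus strand and chr19:3323051-3323350 on the plus strand.
Acot4: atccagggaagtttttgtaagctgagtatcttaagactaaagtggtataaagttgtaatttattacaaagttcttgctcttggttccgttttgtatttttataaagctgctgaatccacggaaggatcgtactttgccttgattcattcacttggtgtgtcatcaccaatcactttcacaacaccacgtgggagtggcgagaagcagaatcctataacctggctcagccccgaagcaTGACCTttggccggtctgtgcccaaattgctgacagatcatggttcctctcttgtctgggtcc
Acadvl: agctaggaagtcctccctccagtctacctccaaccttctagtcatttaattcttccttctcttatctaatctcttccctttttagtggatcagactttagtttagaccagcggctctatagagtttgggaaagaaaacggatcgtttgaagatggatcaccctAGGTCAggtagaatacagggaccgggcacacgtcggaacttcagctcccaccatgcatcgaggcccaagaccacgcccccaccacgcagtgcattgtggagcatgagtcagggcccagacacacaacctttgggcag
Cpt1a: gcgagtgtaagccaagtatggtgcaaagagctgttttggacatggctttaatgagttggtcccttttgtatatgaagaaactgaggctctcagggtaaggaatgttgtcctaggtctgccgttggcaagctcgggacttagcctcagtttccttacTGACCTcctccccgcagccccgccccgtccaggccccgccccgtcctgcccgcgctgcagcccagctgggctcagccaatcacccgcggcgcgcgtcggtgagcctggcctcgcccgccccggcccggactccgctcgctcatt
A match describes letters in this window, and genes with a half-site stood on both sides of the threshold in tumours.

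Across all 16 libraries the members differed widely in how tightly they were held. Cpt1a, the carnitine palmitoyltransferase that controls entry of long-chain fatty acids into mitochondria, had the smallest range, with its highest library 1.74 times its lowest. Etfa, the alpha subunit of the electron transfer flavoprotein, had the smallest spread within groups, with a pooled SD of 0.19 on the log2 scale. At the other end stood the thioesterase Acot3, with a pooled SD of 2.18 and a range of 461 times between 12.8 and 5885 normalised counts, and Acot1, with an SD of 1.36. Pdk4, the kinase that switches off pyruvate dehydrogenase when fat is burned, ranged 23.6 times. The cornstarch livers at 9 months had the highest group mean for 19 of 31 members, while the fructose tumours had the lowest for 21. Per kilobase of merged exons, Acaa1b led in cornstarch livers at 9 months with 12350 normalised counts per kilobase, followed by Acaa2, the mitochondrial thiolase, with 9983, while Pdk4 was lowest with 53.5.

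**Figure D1:**
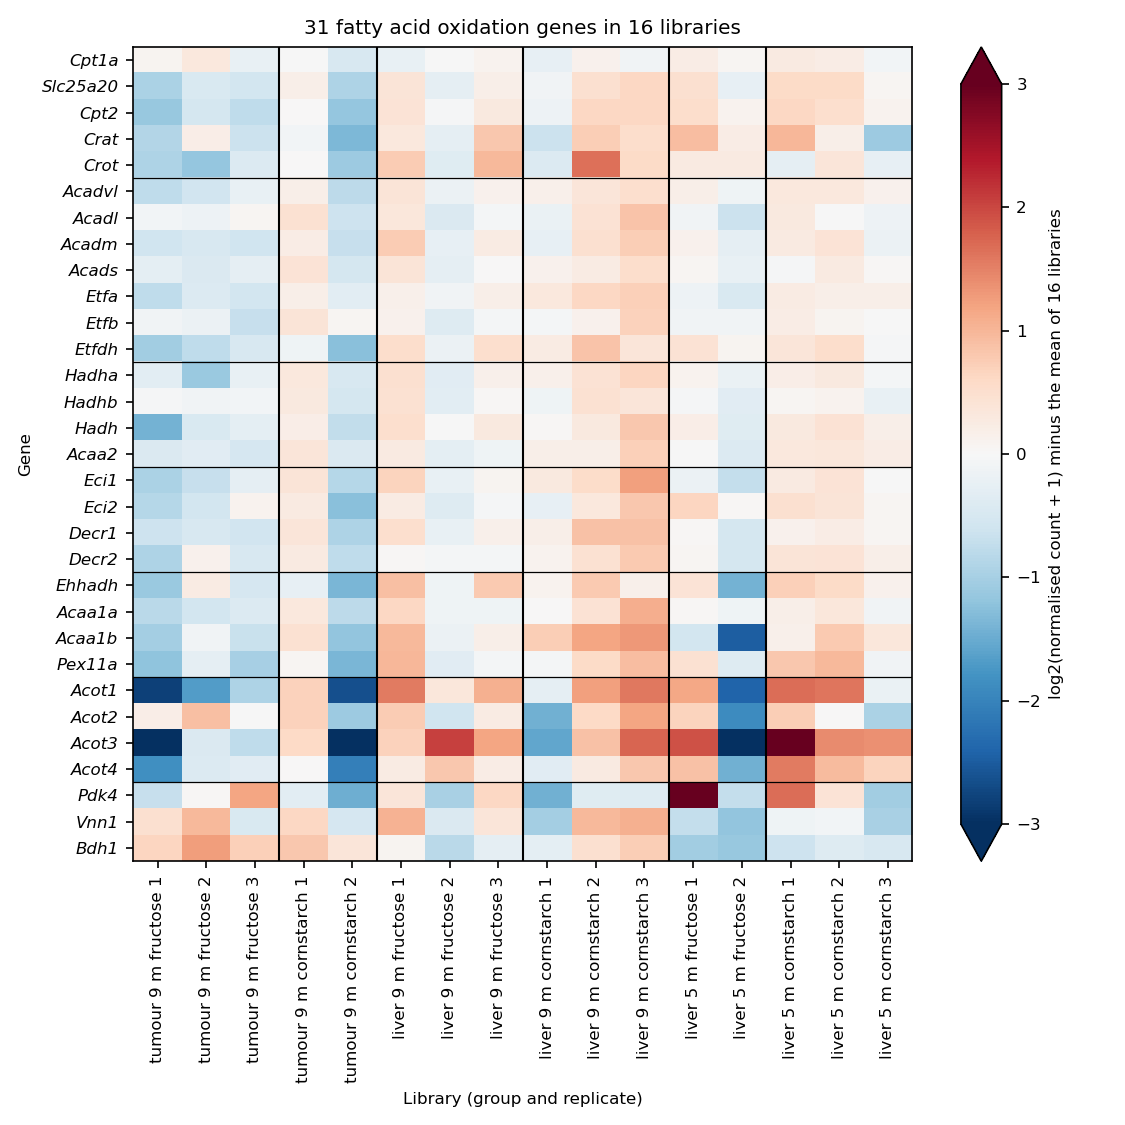
Level of each of the 31 genes (down) in each of the 16 libraries (across), as log2(normalised count + 1) minus that gene's mean of 16 libraries, with colours saturating at -3 and 3; lines separate groups and roles. Fructose tumours and the second cornstarch tumour are below the mean for most genes, Cpt1a is nearly even, and Acot1, Acot3 and Pdk4 vary most within groups.

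Several steps of fatty acid oxidation were lower in tumours than in liver at 9 months. Averaged over both diets, 14 of 31 members were lower and 1, Bdh1, was higher at an adjusted p under 0.05 (limma on log2(normalised count + 1), Benjamini-Hochberg adjustment over all genes), which is 48.4% of members against 23.8% of 14503 genes tested. Of all genes, 10.5% were lower and 13.4% higher. The members' median log2 fold change was -0.69, with 29 of 31 below 0, beside a median of -0.01 over all genes. No member separated all 5 tumours from all 6 livers (0 of 31 lower and 0 of 31 higher, against 5.02% and 7.96% of all genes), and the first cornstarch tumour lay within the range of the livers for 29 members. The number called rested on single libraries. Without the second cornstarch liver 4 members were called, and 5 without the first or last fructose liver or the first fructose tumour. Left out, the last cornstarch liver gave 6 members and the first cornstarch liver 17. Over all genes, the main fit called 3458. Left out singly, the second cornstarch liver gave 2754, the first fructose liver 2777 and the last fructose liver 2627. The first fructose tumour gave 3089, the last cornstarch liver 3262 and the first cornstarch liver 3229. Leaving out the second cornstarch tumour lowered the number called furthest, both among members and over all genes. Leaving out a cornstarch tumour left 1 library in that group, which was assumed to vary as the other groups do, so no counts are given. edgeR's quasi-likelihood test on the recovered reads called 8 members, all lower, among 3444 genes, and DESeq2 called 17 among 4219.

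The carnitine shuttle was lower at 3 of its 5 members. Cpt2, which hands the acyl group back to CoA inside the mitochondrion (chr4:107903981-107923610), had 1064, 1629 and 1397 normalised counts in fructose tumours and 2357 and 1043 in cornstarch tumours, against 3125, 2288 and 2878 in fructose livers and 2119, 3599 and 3640 in cornstarch livers at 9 months. Of the tumours, 4 lay below every liver and the first cornstarch tumour lay inside the liver range. Cpt2 was 1.98-fold lower in tumours (log2 fold change -0.99 ± 0.24 SE, limma adjusted p = 0.0141). Slc25a20, the carrier that moves acylcarnitine across the inner membrane, was lower by a log2 fold change of -0.73 (adjusted p = 0.0400), and Crot, the peroxisomal carnitine octanoyltransferase, by -1.22 (adjusted p = 0.0460). Cpt1a (chr19:3322334-3385733) stood apart from them, with 13931, 16450 and 11289 normalised counts in fructose tumours and 12994 and 9479 in cornstarch tumours, against 11283, 13162 and 14132 in fructose livers and 11143, 14365 and 12340 in cornstarch livers. Its tumour and liver values interleaved, and the log2 fold change was -0.04 ± 0.17 (adjusted p = 0.891). Crat, carnitine acetyltransferase, had a log2 fold change of -0.83 that did not pass the threshold (adjusted p = 0.106).

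Electron transfer held the members with the smallest p-values. Etfdh, the oxidoreductase that passes electrons on to ubiquinone (chr3:79603788-79629500), had 1850, 2268 and 2724 normalised counts in fructose tumours and 3479 and 1597 in cornstarch tumours, against 5476, 3400 and 5448 in fructose livers and 4566, 6938 and 4938 in cornstarch livers. Only the first cornstarch tumour reached above the lowest liver. Etfdh was 2.17-fold lower in tumours (log2 fold change -1.12 ± 0.23, adjusted p = 0.0073), and it was called in 22 of 22 alternative settings, with log2 fold changes of -1.40 to -0.84. Etfa (chr9:55454508-55512243) had 2388, 3047 and 2759 normalised counts in fructose tumours and 4532 and 3206 in cornstarch tumours, against 4451, 3733 and 4559 in fructose livers and 5012, 6153 and 6581 in cornstarch livers. Each diet's tumours lay below that diet's livers, with a log2 fold change of -0.63 ± 0.14 (adjusted p = 0.0096). Its partner subunit Etfb (chr7:43444083-43457800) did not separate the tissues, with 3761, 3549 and 2499 in fructose tumours and 5229 and 4199 in cornstarch tumours, against 4408, 3067 and 3874 in fructose livers and 3888, 4390 and 6512 in cornstarch livers. The tissues overlapped throughout, and its log2 fold change was -0.13 ± 0.18 (adjusted p = 0.655).

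Among the acyl-CoA dehydrogenases, which open each cycle on chains of falling length, Acadvl for very long chains was lower by a log2 fold change of -0.65 (adjusted p = 0.0379), and its count may include reads from Dvl2. Acadm for medium chains had -0.69 (adjusted p = 0.0678) and Acads for short chains -0.37 (adjusted p = 0.168), neither past the threshold. Acadl for long chains (chr1:66830839-66863277) had 3541, 3372 and 3932 normalised counts in fructose tumours and 5190 and 2435 in cornstarch tumours, against 4790, 2796 and 3644 in fructose livers and 3295, 5074 and 6828 in cornstarch livers. Its groups overlapped, with a log2 fold change of -0.23 ± 0.25 (adjusted p = 0.534). Hadh, the short-chain hydroxyacyl-CoA dehydrogenase, was lower by -0.81 (adjusted p = 0.0443), while the trifunctional protein subunits Hadha (-0.58, adjusted p = 0.0961) and Hadhb (-0.24, adjusted p = 0.404) and the thiolase Acaa2 (-0.38, adjusted p = 0.178) did not pass. Of the enzymes that prepare unsaturated chains, the isomerase Eci1 (-0.86, adjusted p = 0.0426) and the mitochondrial dienoyl-CoA reductase Decr1 (-0.81, adjusted p = 0.0346) were lower in tumours, and Eci2 and the peroxisomal reductase Decr2 were not called.

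All but 1 of the 4 members grouped here under the peroxisome were lower. Crot and Decr2, named above as peroxisomal, were grouped with other steps. Acaa1b (chr9:119148023-119157093) had 5582, 10573 and 7062 normalised counts in fructose tumours and 15589 and 4968 in cornstarch tumours, against 22252, 10046 and 12762 in fructose livers and 18894, 25754 and 28041 in cornstarch livers. The cornstarch tumours lay below their livers and the fructose groups touched, with a log2 fold change of -1.18 ± 0.33 (adjusted p = 0.0266). Ehhadh, the peroxisomal bifunctional enzyme (chr16:21761287-21787807), had 2504, 6450 and 3823 in fructose tumours and 4575 and 2097 in cornstarch tumours, against 10055, 4927 and 9344 in fructose livers and 5832, 9297 and 5997 in cornstarch livers. One fructose tumour exceeded the lowest fructose liver, and the log2 fold change was -1.06 ± 0.31 (adjusted p = 0.0334). Pex11a, which takes part in peroxisome division, was lower by -1.07 (adjusted p = 0.0423), and Acaa1a had -0.73 without passing (adjusted p = 0.0625).

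The thioesterases on chromosome 12 showed the widest folds and the widest spread. Acot1, the cytosolic enzyme (chr12:84009490-84018371), had 68.7, 151 and 252 normalised counts in fructose tumours and 777 and 76.5 in cornstarch tumours, against 1431, 609 and 1008 in fructose livers and 400, 1128 and 1457 in cornstarch livers. Apart from the first cornstarch tumour, every tumour was below every liver, and Acot1 was 4.94-fold lower (log2 fold change -2.31 ± 0.60, adjusted p = 0.0205). Acot4 (chr12:84038379-84048601) had 222, 596 and 625 in fructose tumours and 794 and 191 in cornstarch tumours, against 935, 1378 and 918 in fructose livers and 624, 947 and 1381 in cornstarch livers. It was 2.41-fold lower (log2 fold change -1.27 ± 0.40, adjusted p = 0.0444), and its fructose groups did not overlap. Acot3 (chr12:84052144-84060402) had 36.5, 412 and 328 in fructose tumours and 841 and 12.8 in cornstarch tumours, against 904, 2294 and 1256 in fructose livers and 189, 1014 and 1865 in cornstarch livers. The fold was large but the spread within groups was larger than for any other member, and it was not called (log2 fold change -2.86 ± 1.07, adjusted p = 0.0768). Acot2, the mitochondrial form, had a log2 fold change of -0.03 (adjusted p = 0.970).

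Bdh1, the mitochondrial dehydrogenase that interconverts acetoacetate and 3-hydroxybutyrate (chr16:31422280-31458901), ran the other way. It had 7361, 11265 and 7758 normalised counts in fructose tumours and 8333 and 6082 in cornstarch tumours, against 5020, 2692 and 3915 in fructose livers and 3868, 6562 and 7880 in cornstarch livers. Every fructose tumour exceeded every fructose liver, while the cornstarch groups overlapped. Bdh1 was 1.67-fold higher over both diets (log2 fold change 0.74 ± 0.24, adjusted p = 0.0447), and this call was lost when any of 7 single libraries was left out. Pdk4 (chr6:5483351-5496309) had 183, 302 and 676 in fructose tumours and 239 and 106 in cornstarch tumours, against 381, 150 and 458 in fructose livers and 108, 230 and 225 in cornstarch livers. Its values overlapped in both diets, with a log2 fold change of 0.01 ± 0.42 (adjusted p = 0.993), and Vnn1, a pantetheinase, had -0.14 (adjusted p = 0.854).

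**Figure D2:**
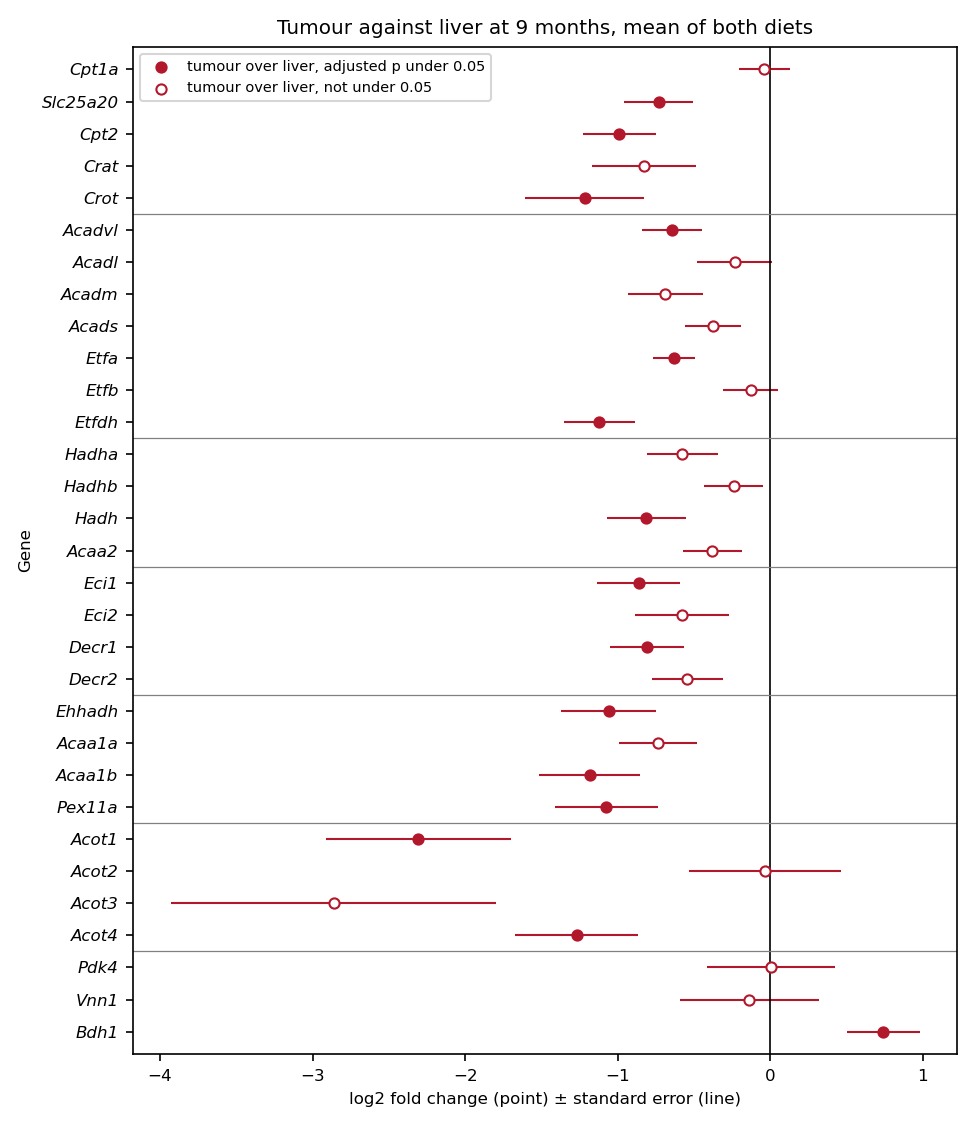
Log2 fold change of tumour over liver at 9 months, averaged over both diets, for each of the 31 genes by role; lines are standard errors and filled points have an adjusted p under 0.05. Filled points lie left of 0 for 14 genes, led by Acot1 at -2.31, and right of 0 for Bdh1 at 0.74, while Cpt1a, Acot2 and Pdk4 sit close to 0.

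Taken one diet at a time, the same contrast gave few calls. Under fructose 1 member, Bdh1, was called (2.30-fold higher, log2 fold change 1.20 ± 0.32, adjusted p = 0.0379), 3.23% of members against 10.2% of all genes, with a members' median of -0.69. Acot1 (log2 fold change -2.79 ± 0.81, adjusted p = 0.0531) and Etfa (-0.64 ± 0.19, adjusted p = 0.0543) came next without passing, and the Bdh1 call was lost without the second or last fructose liver or without any 1 of the 3 fructose tumours. DESeq2 called 6 members among 2463 genes under fructose, and edgeR 1 among 1472 genes. Under cornstarch limma called 0 members, against 5.71% of all genes. At an unadjusted p under 0.05 stood 8 members, against 3343 of 14503 genes. edgeR called 0 members among 811 genes, and DESeq2 2 among 1696 genes. The members' median was again -0.69, and the smallest p-values were those of Etfdh (-1.19 ± 0.35, adjusted p = 0.0714), Etfa (-0.62 ± 0.21, adjusted p = 0.104) and Acaa1b (-1.44 ± 0.49, adjusted p = 0.112). Without the first, second or last cornstarch liver, 0 members were called under cornstarch, among 516, 355 and 644 genes. Leaving out a cornstarch tumour left 1 library in its group, so no count is given. Of 107 pathway genes outside the 31 members, 22 were lower and 4 higher under fructose, and 4 were lower and 4 higher under cornstarch. Of all genes, 4.46% were lower and 5.75% higher under fructose, and 0.889% were lower and 4.82% higher under cornstarch.

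Genes of the same pathways outside the 31 were read from lists, for tumour against liver over both diets. Of all genes, 10.5% were lower and 13.4% higher in that contrast. Of 17 other beta-oxidation, acyl-CoA dehydrogenase and matrix enzymes, 12 were lower in tumours and 1 was higher (median -0.69), led by Nudt7, a peroxisomal CoA diphosphatase (-1.78 ± 0.22, adjusted p = 0.000551), and Acadsb, a branched-chain acyl-CoA dehydrogenase (-1.21 ± 0.18, adjusted p = 0.00123). Of 23 peroxisomal enzymes and carriers, 12 were lower and 1 was higher (median -0.67), with Pecr, a peroxisomal enoyl-CoA reductase, at -1.44 ± 0.20 (adjusted p = 0.00102), and the higher one was Abcd2, a fatty acid transporter of the peroxisomal membrane, at 2.41 ± 0.30 (adjusted p = 0.000609). Of 9 genes of microsomal omega oxidation, which oxidises the far end of the chain, 7 were lower and 1 was higher (median -1.73). Cyp4f15 had -1.30 ± 0.21 (adjusted p = 0.00228) and Cyp4a14 had -3.86 ± 1.15 (adjusted p = 0.0348), although Cyp4a14 averaged 6741 ± 9212 normalised counts (SD, n = 2) in cornstarch tumours and 16457 ± 12964 (SD, n = 3) in cornstarch livers. Of 14 genes of uptake and activation, 4 were lower and 3 higher. The higher ones included the acyl-CoA synthetases Acsl4 (2.12 ± 0.30, adjusted p = 0.00113) and Acsl3 (1.30 ± 0.25, adjusted p = 0.00498), and the lower ones the bile acid and fatty acid CoA ligase Slc27a5 (-1.17 ± 0.23, adjusted p = 0.00527).

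Of 8 genes of ketone body synthesis, export and use, 2 were lower and 1 higher in tumours. Acat1, the mitochondrial acetoacetyl-CoA thiolase, was lower (-0.85 ± 0.26, adjusted p = 0.0358), as was Bdh2 (-1.09 ± 0.35, adjusted p = 0.0452), while Slc16a6, a monocarboxylate carrier, was higher (1.30 ± 0.38, adjusted p = 0.0311). Of 21 regulators, 4 were lower and 0 higher: the deacetylases Sirt3 (-1.17 ± 0.19, adjusted p = 0.00226) and Sirt1 (-0.62 ± 0.16, adjusted p = 0.0176), the coactivator Ppargc1a (-0.91 ± 0.22, adjusted p = 0.0148) and Mlycd, named here after its value was seen. Ppara itself had -0.19 ± 0.22 (adjusted p = 0.589), and the hormone Fgf21 had 0.55 ± 0.75 (adjusted p = 0.637). Of 15 other PPAR-alpha targets, 3 were lower and 1 higher, with the lipid droplet protein Plin5 at -1.40 ± 0.25 (adjusted p = 0.00365). Without the second cornstarch tumour, the calls of Acat1, Bdh2, Slc16a6, Cyp4a14, Ppargc1a and Sirt1 were lost.

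Markers of other cells were read in the same contrast. Of 10 cell cycle genes, 7 were higher in tumours, with sums of 596 to 2003 normalised counts, against 256 to 786 in livers at 9 months. Neutrophil marker sums were 6439 to 24886 in tumours, against 332 to 4632 in livers, yet 1 of 12 tested markers was called, Lcn2 (higher), and 5 of 12 had a log2 fold change below 0, with a median of 0.12. Cholangiocyte marker sums were 1998 to 9977 in tumours, against 832 to 1596 in livers, with 1 of 5 tested markers called, Spp1 (higher), and a median of 0.05. Of 14 macrophage and Kupffer cell markers, 3 were lower and 1 higher, and of 12 matrix and stellate cell markers, 3 were higher and 2 lower. Hepatocyte markers were higher at 2, lower at 3 and uncalled at 11 of 16. Their part in the members' differences was not tested.

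**Figure D3:**
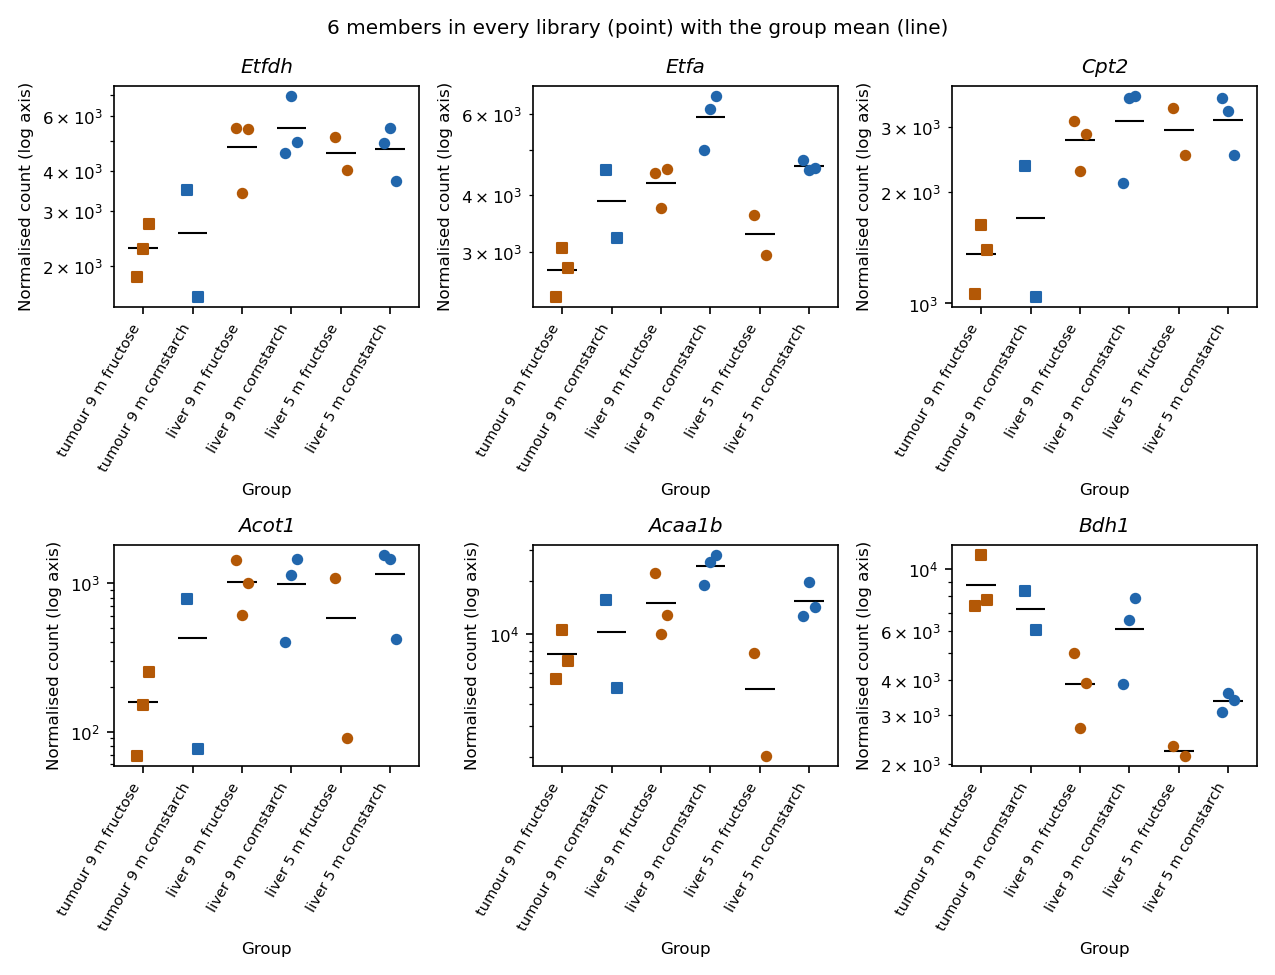
Normalised counts (log axis) of 6 members in every library, with fructose in orange, cornstarch in blue, squares for tumours and circles for livers; short lines are group means. In all panels but Bdh1 the first cornstarch tumour sits inside the liver range at 9 months, and Bdh1 is the member whose fructose tumours exceed all fructose livers.

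Between diets within tumours, limma called 0 of 31 members, and 0.0% of 14503 genes. At an unadjusted p under 0.05 stood 1 member, against 1178 of 14503 genes. edgeR and DESeq2 each called 0 members, against 0 and 107 genes. The smallest p-values were those of Etfa, where both cornstarch tumours exceeded all 3 fructose tumours (log2 fold change -0.49 ± 0.21, adjusted p = 0.603), Etfb (-0.54 ± 0.27, adjusted p = 0.643) and Pdk4 (1.07 ± 0.63, adjusted p = 0.682). The difference of the diet effect between tumour and liver was called for 0 members, and 0.0% of genes, by limma. At an unadjusted p under 0.05 stood 0 members, against 424 of 14503 genes. edgeR and DESeq2 each called 0 members and 0 genes. Bdh1 (0.92 ± 0.47), Acadl (0.43 ± 0.49) and Cpt1a (0.28 ± 0.33) had the smallest p-values there, all with an adjusted p of 1.

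In livers over both ages, 3 of 31 members were lower under fructose and 0 were higher. That share, 9.68%, was near the 7.61% of 14317 genes called lower and below the 21.4% called in all, with 13.8% called higher, so the count does not set the members apart. Of the members, 27 of 31 had a log2 fold change below 0, with a median of -0.28 beside -0.01 over all genes. The lower ones were Etfa (-0.49 ± 0.11, adjusted p = 0.0103), Acaa1b (-1.34 ± 0.34, adjusted p = 0.0180) and Decr2 (-0.52 ± 0.15, adjusted p = 0.0276). Leaving out the second 5-month fructose liver lowered the number called, both among members and over all genes, and left 1 library in its group. Without the first fructose liver at 9 months 6 members were called among 2584 genes. Without the first cornstarch liver at 9 months 6 were called among 3247, against 3059 genes in the main fit. edgeR called 3 members among 3001 genes and DESeq2 6 among 3524 genes, with these members all lower.

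At 9 months alone limma called 0 members, against 2.54% of genes, and the members' median was -0.22. At an unadjusted p under 0.05 stood 3 members, against 2939 of 14317 genes. edgeR called 0 members among 387 genes, and DESeq2 1 among 960 genes. The diets did not overlap for 2 of 31 members, Etfa and Decr2, while they did not overlap for 23.6% of all genes. For Etfa, whose values stand with the tumours, every fructose liver was below every cornstarch liver (log2 fold change -0.47 ± 0.14, adjusted p = 0.110). Decr2, the peroxisomal dienoyl-CoA reductase (chr17:26081208-26090337), had 3141, 2938 and 2960 normalised counts in fructose livers, against 3304, 4244 and 5312 in cornstarch livers, and in tumours it had 1630, 3351 and 2199 under fructose and 3716 and 1830 under cornstarch. The fructose livers lay close together and just below the lowest cornstarch liver (-0.48 ± 0.19, adjusted p = 0.197), and Bdh1 had -0.64 ± 0.27 (adjusted p = 0.214).

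At 5 months Acaa1b was the 1 member called, lower under fructose, against 14.8% of genes called in all and 4.48% called lower. It had 7765 and 2039 normalised counts in fructose livers, against 12613, 19595 and 14211 in cornstarch livers. Both fructose livers lay below all cornstarch livers, and the fold was 3.82-fold lower (log2 fold change -1.93 ± 0.50, adjusted p = 0.0274). Etfa, with 3605 and 2941 in fructose livers against 4769, 4533 and 4574 in cornstarch livers, was also separated without passing (-0.51 ± 0.16, adjusted p = 0.0605). Decr2 likewise had 3233 and 2128 under fructose, against 4038, 4110 and 3497 under cornstarch (-0.56 ± 0.22, adjusted p = 0.110). The members' median at 5 months was -0.38, with 26 of 31 below 0, beside -0.01 over all genes. The diets did not overlap for 8 of 31 members at 5 months, against 51.8% of all genes.

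These 5-month values rested on few libraries. The count of members called was 0 without the second or last cornstarch liver. Those refits called 1185 and 1263 of all genes, against 2119 in the main fit. Leaving out a fructose liver left 1 in its group. Acaa1b then had a log2 fold change of -2.90 without the first and -0.97 without the second, against -1.93 with both. With the 2 Xist-positive libraries left out, which leaves 1 fructose liver against 2 cornstarch livers, Acaa1b had a log2 fold change of -3.03. A group of 1 liver has no spread of its own. edgeR called 0 members among 2056 genes and DESeq2 2 among 2555 genes. The 2 fructose livers differed from each other by up to 36.3 times for Acot3.

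The thioesterases, Ehhadh and Pdk4 showed that spread. The first fructose and the first cornstarch liver were the Xist-positive ones, so the libraries of each diet also differed in sex. The part of sex in the spread was not tested. Acot3 had 2074 and 57.1 normalised counts in 5-month fructose livers, against 5885, 1486 and 1441 in cornstarch livers. Acot1 had 1079 and 90.2, against 1548, 1464 and 423, and Acot4 had 1460 and 290, against 2331, 1538 and 1249. Ehhadh had 7193 and 2014 in fructose livers, against 8849, 8052 and 5899 in cornstarch livers. In each of these 4 genes the first fructose liver lay inside the cornstarch range and the second below it. Pdk4 had 2492 and 179 in fructose livers, against 943, 393 and 144 in cornstarch livers, so the first fructose liver was the highest of all 16 libraries. Cpt2 (3373 and 2521 under fructose, against 3606, 3306 and 2514 under cornstarch), Cpt1a (15464 and 13777, against 15815, 15280 and 12409) and Etfdh (5147 and 4031, against 4925, 5498 and 3732) did not separate the diets. Acadl had 3518 and 2418 under fructose, against 4577, 3734 and 3388 under cornstarch, and overlapped. Etfb had 3720 and 3725 in fructose livers, both below the 4708, 4258 and 4011 of cornstarch livers, without passing the threshold.

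**Figure D4:**
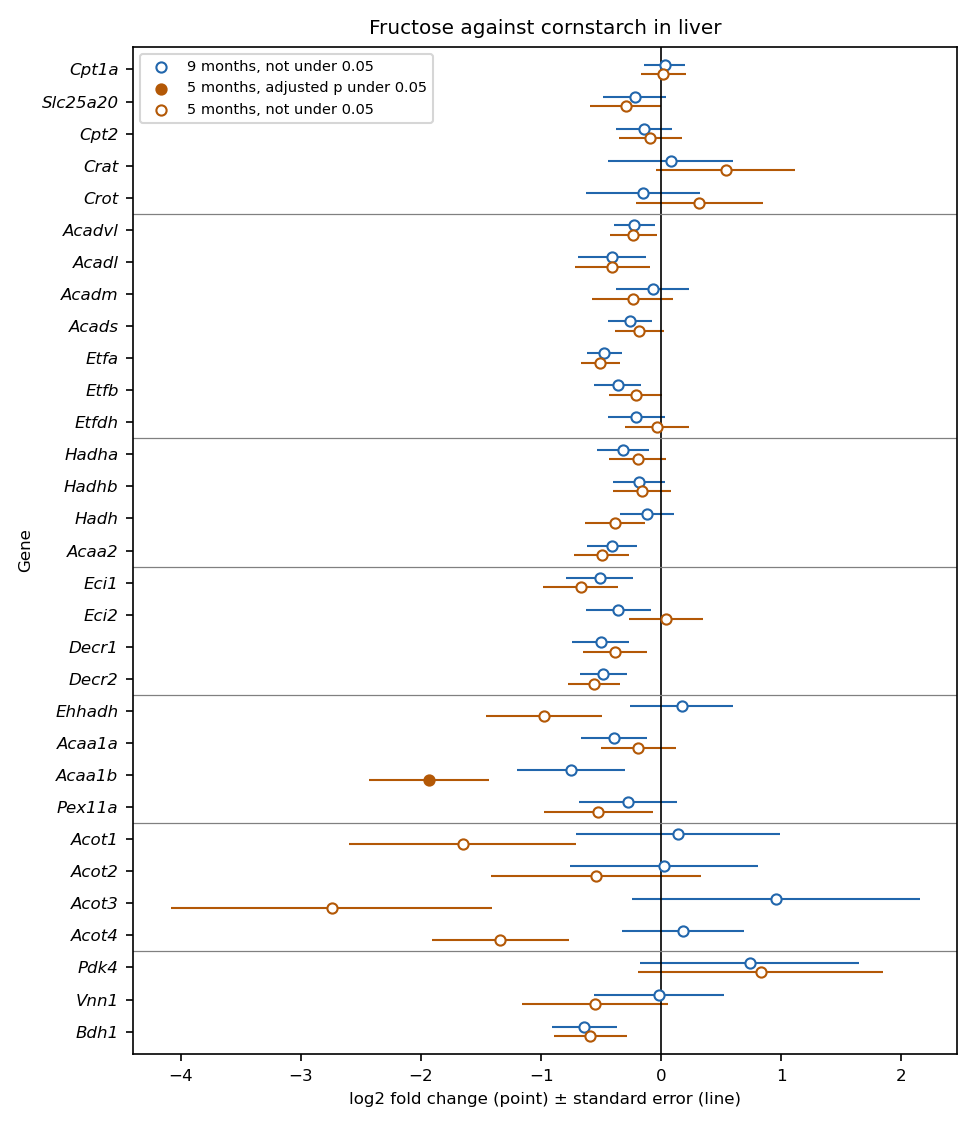
Log2 fold change of fructose over cornstarch in liver at 9 months (blue) and at 5 months (orange) for each of the 31 genes by role; lines are standard errors and filled points have an adjusted p under 0.05. The 1 filled point is Acaa1b at 5 months, at -1.93, and the thioesterase Acot3 has the longest lines.

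Of 106 genes of the pathway lists, 15 were lower and 6 higher under fructose over both ages, against 7.61% and 13.8% of all genes. Fructose livers had lower Sirt3 (-0.72 ± 0.10, adjusted p = 0.000911), Fabp1, the liver fatty acid binding protein (-1.28 ± 0.21, adjusted p = 0.00226), and Bdh2 (-1.68 ± 0.28, adjusted p = 0.00255), and higher Cd36, a fatty acid receptor (1.34 ± 0.22, adjusted p = 0.0026), Oxct1, which activates ketone bodies for use (1.09 ± 0.18, adjusted p = 0.00228), and the carrier Ucp2 (1.45 ± 0.15, adjusted p = 0.00028). By list, 4 of 17 other beta-oxidation, dehydrogenase and matrix enzymes were lower and 1 higher, 3 of 23 peroxisomal genes were lower and 0 higher, and 1 of 9 omega oxidation genes was lower. In uptake and activation 2 of 14 were lower and 1 higher, in ketone body metabolism 1 of 8 was lower and 2 higher, among regulators 2 of 21 were lower, and of 14 other PPAR-alpha targets 2 were lower and 2 higher. At 5 months 12 of 106 were lower and 4 higher, against 4.48% and 10.3% of all genes. At 9 months Fabp1 was lower (-1.37 ± 0.28, adjusted p = 0.0350) and Ucp2 higher (1.29 ± 0.20, adjusted p = 0.0243). Ppara (0.00 ± 0.22, adjusted p = 0.998) and Ppargc1a (0.09 ± 0.26, adjusted p = 0.831) were not called. Over the same contrast 14 of 14 neutrophil, 12 of 14 macrophage and 9 of 10 cell cycle markers were higher under fructose. Macrophage marker sums were 20733 to 29790 normalised counts in fructose livers at 9 months, against 4337 to 11989 in cornstarch livers, and the part of these cells in the members' differences was not tested.

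Between ages, livers at 9 months were set against livers at 5 months over both diets. The first fructose and the first cornstarch liver at 5 months were Xist-positive, while every liver at 9 months had Y-linked counts. Age and sex were therefore partly confounded in this contrast. limma called 0 members, against 2.77% of genes. At an unadjusted p under 0.05 stood 6 members, against 3185 of 14317 genes. edgeR called 0 members among 343 genes, and DESeq2 4 among 1081 genes, with these members all higher. The members' median was 0.20, with 24 of 31 above 0. Bdh1, at 2692 to 7880 normalised counts at 9 months, against 2315 and 2142 in fructose and 3080, 3598 and 3393 in cornstarch livers at 5 months, came nearest (log2 fold change 0.78 ± 0.20, adjusted p = 0.0653), followed by Acaa1b (1.24 ± 0.34, adjusted p = 0.0724) and Etfa (0.36 ± 0.11, adjusted p = 0.0947). Without the first cornstarch liver at 9 months, 3 members were called among 796 genes, against 397 genes in the main fit. Of the pathway genes, Fabp1 (0.97 ± 0.21, adjusted p = 0.0389) and the lipid droplet proteins Cidea (3.25 ± 0.71, adjusted p = 0.0400) and Cidec (1.97 ± 0.43, adjusted p = 0.0412) were higher at 9 months, and Ucp2 was lower (-0.72 ± 0.15, adjusted p = 0.0323). The difference of the diet effect between 9 and 5 months was called for 0 members by limma, against 0.698% of genes. At an unadjusted p under 0.05 stood 0 members, against 1641 of 14317 genes. edgeR called 0 members among 46 genes, and DESeq2 0 among 318 genes. Acot3 (3.70 ± 1.80, adjusted p = 0.482), Acot4 (1.52 ± 0.76, adjusted p = 0.500) and Ehhadh (1.15 ± 0.65, adjusted p = 0.557) had the smallest p-values.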

How the data were processed

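The mRNA of liver and liver tumour was sequenced with an Illumina TruSeq mRNA kit, per the labels' protocols. FastQC, Trim Galore, STAR, RSEM, DESeq2 and GRCm38 are named in the submitters' processing notes, without versions, and whether reads were stranded is not given in the sources used here. As deposited by the authors, the data were 1 table of normalised counts (the signal analysed here) for 47069 Ensembl identifiers and 16 libraries, and 0 sample columns were left unused. Every value was a whole multiple of 1 read's worth within 0.01 (100% of values in each library), so reads were recovered for the count tests. The identifiers matched GENCODE M21 names for 98.8%.

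Values were tested as log2(normalised count + 1) with limma 3.58.1 (trended variance) in R 4.3.3, on genes at 10 or more in at least 2 libraries of the fit: 1 fit of the 11 libraries at 9 months and 1 of the 11 livers. Fold changes are on that scale and understate those of low genes. P-values were adjusted by Benjamini-Hochberg over all genes tested, with calls under 0.05. The fits were tested on simulated data. edgeR 4.0.16 called 3444 and DESeq2 1.42.0 called 4219 genes between tumour and liver, where limma called 3458. Other alternatives changed the pseudocount, filter, scaling, weights, moderation and libraries.

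Library values are given for members called (up to 6 per comparison by p) or, with under 3 called, the 3 with the smallest p. The members and lists were chosen with earlier results of these data known. Replicate numbers follow accession order and pair nothing. Some pathway genes are not reported here.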

Additional observations from a re-analysis of the deposited data

How the results depend on the processing

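Over both diets, 15 members were called between tumour and liver, 7 with no filter on low values, 8 with edgeR and 1 to 20 when single libraries were left out. Under fructose, the 1 call among 1481 genes became 0 with no filter (1274 genes) and 2 with quantile normalisation (1692 genes) or array weights (2026 genes). It became 4 in 1 fit of all 16 libraries (2246 genes) or of the groups compared alone (1174 genes). DESeq2 gave 6 (2463 genes), and leaving out single libraries gave 0 to 1, among 568 to 1518 genes. Under cornstarch, 0 calls among 828 genes became 2 in 1 fit of all 16 libraries (1465 genes) or with DESeq2 (1696 genes). Leaving out single livers gave 0. For diet at 5 months, the 1 call among 2119 genes became 3 with array weights (3625 genes), 2 with DESeq2 (2555 genes) and 0 with edgeR (2056 genes). With the groups compared alone 2 members were called among 2232 genes, and Acaa1b was not among them. The count became 0 without the second cornstarch liver (1185 genes) or the last (1263 genes). Over both ages, 3 calls among 3059 genes became 1 with quantile normalisation (3277 genes) and 6 with array weights (3701 genes) or DESeq2 (3524 genes). Leaving out single livers, other than 5-month fructose livers, gave 2 to 6. At 9 months 0 calls among 363 genes became 1 with DESeq2 (960 genes). Between ages 0 calls among 397 genes became 1 with quantile normalisation (521 genes) and 4 with DESeq2 (1081 genes). Leaving out single livers, other than 5-month fructose livers, gave 0 to 3, the 3 among 796 genes. The cause was not tested.

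Of 855 alternative values of named members, 708 kept their direction and side of the threshold, 121 lost and 25 gained a call, and 1 reversed: the Acadl difference of diet effects between tumour and liver became -0.12 without the second cornstarch tumour (0.98 without the first). Outside the members, Fgf21 between tumour and liver became -0.019 without the first cornstarch tumour (1.11 without the second). No paired analysis was possible because the labels carry no replicate numbers. Groups of 2 or 3 libraries limit the precision of every value.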
